A study of Homo sapiens with 6 samples.

Results

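The genes described here are 34 markers of the macroglial lineages, 26 of astrocytes and 8 of the oligodendrocyte lineage. They are a list of gene names to which no threshold on level or change was applied, and all 34 were found among the 18056 genes of the deposited table. A filter on low counts left 28 of them for testing, 24 of the astrocyte genes and 4 of the oligodendrocyte genes. RNA was sequenced from human forebrain organoids, cell aggregates that form tissue resembling the dorsal forebrain. Their source was the wild-type line DYR0100, an established line of induced pluripotent stem cells. In 3 libraries the organoids had received vehicle, and in the other 3 they had received Aβ42, the aggregation-prone amyloid-β peptide, at 5 µM. Treatment lasted 6 days. All 6 libraries come from 1 cell line and are labelled as 1 batch, the series describes the replicates of a condition as independent, and the age of the organoids and the number pooled per library are not given in the sources used here.

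Astrocytes clear glutamate from synapses, convert it to glutamine, move water and potassium, and are joined to each other by gap junctions. They arise from radial glia after the main wave of neurogenesis, under transcription factors of the nuclear factor I (NFI) family, and many of their genes are already active in radial glia. Oligodendrocyte precursors are marked by the growth factor receptor PDGFRA, the proteoglycan CSPG4 (also called NG2) and the transcription factors OLIG1, OLIG2 and SOX10, and they mature into the cells that wrap axons in myelin. In bulk RNA, fewer cells of a type and less RNA per cell cannot be told apart.

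The libraries held 16465390 to 16742958 estimated counts each. The dorsal forebrain factor EMX1 was at 21.9 to 26.1 TPM (transcript counts scaled for gene length and library total). The pluripotency gene NANOG was at 0 to 0.16 TPM and POU5F1 at 1.71 to 3.66 TPM, while the labels give the cell type of the libraries as the stem cell. Aβ42 replicate 2 stood apart from its group. Its counts differed from those of the vehicle libraries by a chi-square of 3.16 to 7.71 per gene, less than from Aβ42 replicate 1 (9.4) or 3 (8.49), where sampling alone gives about 1. Libraries with the same replicate number also deviated together from their group means (correlations of 0.204, 0.416 and 0.124 over 12187 genes for numbers 1, 2 and 3). So did vehicle replicate 3 with Aβ42 replicate 1 (0.225) and vehicle replicate 1 with Aβ42 replicate 3 (0.149). These correlations set number 2 apart but do not tell numbers 1 and 3 from each other. Values are therefore also given, where the call changed, from a fit that takes replicate number as a block, and calls that changed without Aβ42 replicate 2 are given for the members and as counts for the wider lists.

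Members of the astrocyte list covered a wide range of levels in these organoids, from NFIB down to the gap junction gene GJB6. On the TPM scale, averaged over the 6 libraries, 5 of the 26 astrocyte genes were at 100 or more, 11 between 10 and 100, 8 between 1 and 10 and 2 under 1. Of the 8 oligodendrocyte lineage genes, BCAN was between 10 and 100, PDGFRA and CSPG4 were between 1 and 10, and the other 5 were under 1. The highest levels belonged to NFIB (213.7 TPM), the secreted matrix protein SPARC (199.0 TPM), the glutamine synthetase gene GLUL (180.7 TPM), the glutamate transporter gene SLC1A2 (128.8 TPM) and NFIX (103.8 TPM). These genes are shared with radial glia or other neural cells. Other astrocyte markers spread over the levels below these, with NDRG2 at 87.7 TPM, GFAP at 26.7 TPM, ALDH1L1 at 7.47 TPM, AQP4 at 0.74 TPM and AGT at 1.06 TPM.

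**Figure D1:**
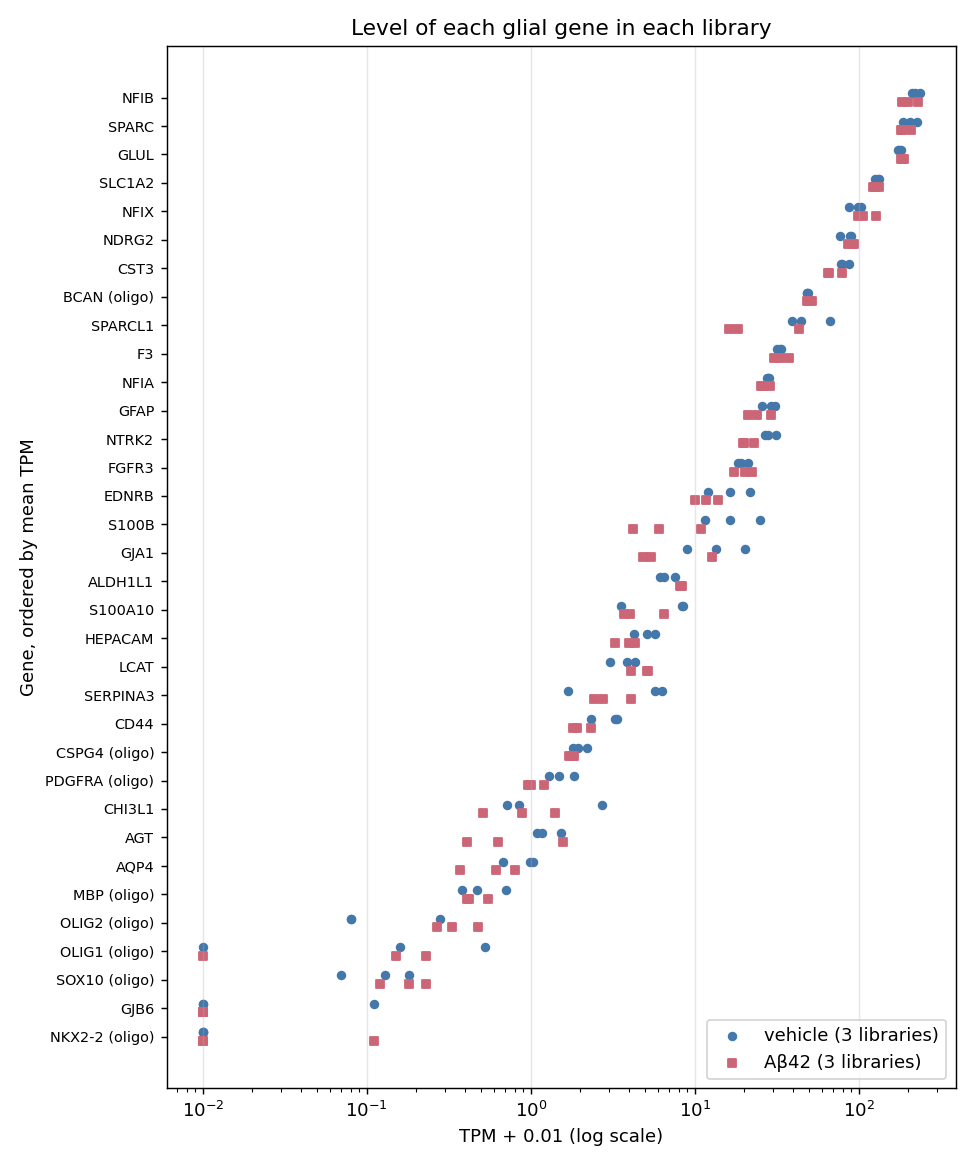
Level of each of the 34 genes in each library, as TPM + 0.01 on a log axis, ordered by the mean over libraries (blue circles, vehicle; red squares, Aβ42; points at 0.01 are libraries listed at 0). Astrocyte genes fill the upper part of the range up to NFIB at 213.7 TPM, and 5 of the 8 oligodendrocyte lineage genes lie under 1 TPM.

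Transcription factors that define the oligodendrocyte lineage were close to the limit of detection. OLIG1, a lineage factor of oligodendrocytes and motor neurons, had 7, 0 and 2 counts in vehicle replicates 1 to 3 and 0, 3 and 2 with Aβ42. OLIG2, its neighbour on chromosome 21, had 4, 1 and 1 counts in vehicle and 7, 4 and 5 with Aβ42. SOX10, the factor that drives myelin genes, had 3, 2 and 1 counts in vehicle and 2, 3 and 4 with Aβ42. NKX2-2, a ventral precursor factor, had a single count, in Aβ42 replicate 3. None of these 4 genes passed the filter, and 0 counts in a library allow up to 3 counts, or 0.179 to 0.182 CPM (counts scaled to the library total). A change in them was not detectable at this depth. In edgeR's test without the filter the smallest p-value among them was that of OLIG2 (0.0725 unadjusted, 0.297 adjusted). The list name is kept below as the name of a gene list, since the defining factors of oligodendrocytes were near 0 in these organoids.

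Without a block, edgeR's quasi-likelihood test over 13842 genes called no member of either list at an adjusted threshold of 0.05, and no other gene (0% of those tested). Before adjustment, 7 of 24 astrocyte genes were under that threshold, 4 higher and 3 lower with Aβ42, against 23.9% of all genes tested (12.4% higher and 11.5% lower). The share of these astrocyte genes was 29.2%, near that background, and 0 of 4 oligodendrocyte genes were among them. Groups did not overlap for 5 of 24 astrocyte genes (S100B and NTRK2 lower, ALDH1L1, GLUL and NDRG2 higher) and for 1 of 4 oligodendrocyte genes (BCAN, higher), against 27% of all genes tested (13.6% higher and 13.4% lower). The median log2 fold change was -0.11 over the 24 astrocyte genes, 16 of them negative, and -0.03 over the 4 oligodendrocyte genes, beside 0.00 over all genes tested. In the wider lists described further on, the median was -0.02 over 24 other astrocyte genes (14 negative) and -0.17 over 11 reactive genes (7 negative). It was -0.11 over 12 other precursor genes (9 negative) and -0.01 over 9 myelin genes (6 negative). The difference between the lists was not tested, as members are not replicates.

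With the replicate number as a block, 6 of 24 astrocyte genes passed, 5 lower and 1 higher with Aβ42, and 0 of 4 oligodendrocyte genes passed. Of all genes tested 14.2% passed in that fit, 7.12% as higher and 7.05% as lower. The 6 were S100B, GJA1, SPARCL1, NTRK2 and EDNRB, lower, and NFIX, higher. Without Aβ42 replicate 2 and without a block, 4 astrocyte genes passed (S100B, SPARCL1 and NTRK2 lower, NFIX higher) and no oligodendrocyte gene, against 23.1% of all genes (11.5% higher and 11.6% lower). That library was singled out from these same counts because it lay nearer to vehicle than to its own group. Leaving it out favours calls, so this fit is not separate support wherever it is quoted. With an offset for gene length added to the block the same 6 genes passed, against 14.4% of all genes (7.46% higher and 6.94% lower). DESeq2 without a block called NTRK2 alone among the members, as lower, against 5.88% of all genes (2.81% higher and 3.07% lower). Among the oligodendrocyte genes PDGFRA had the smallest unadjusted p-value in edgeR's test without a block (0.0642).

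**Figure D2:**
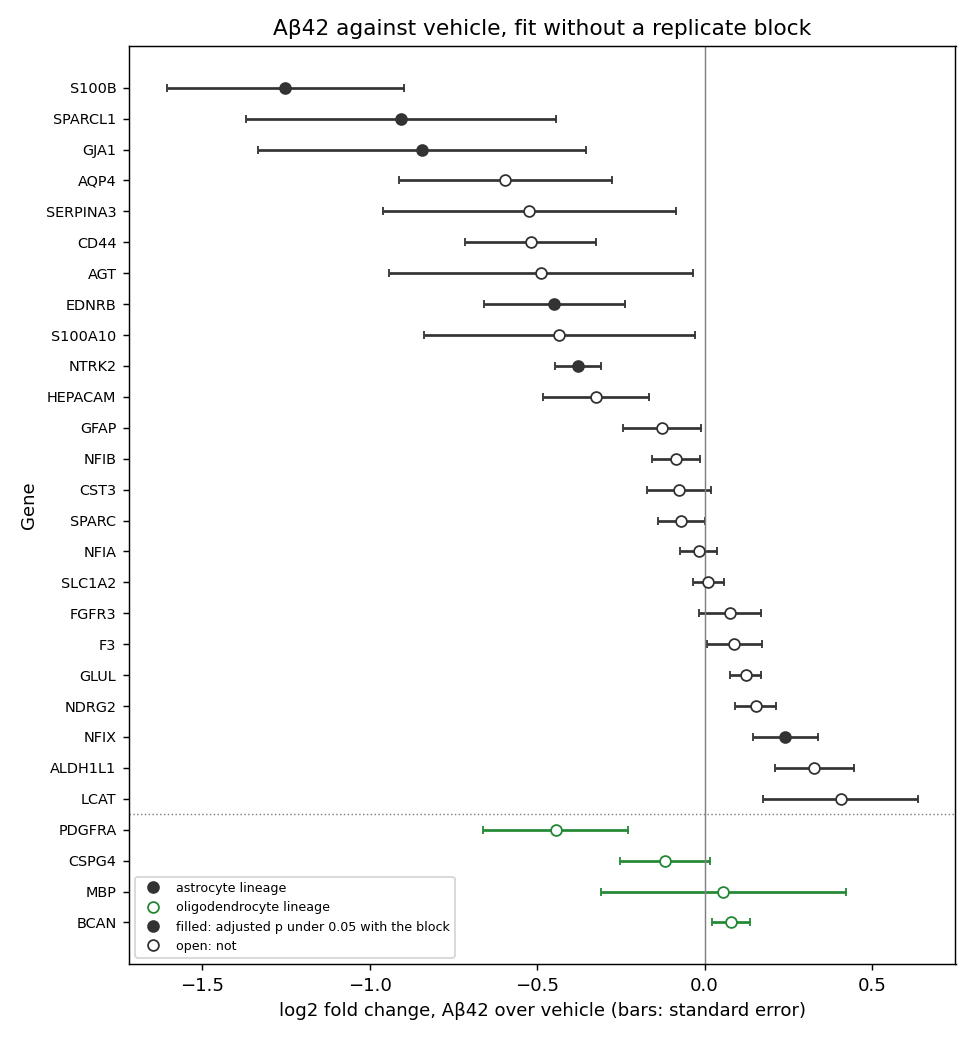
Log2 fold change of Aβ42 over vehicle for the 28 tested members from the fit without a block, with standard errors (black, astrocyte lineage; green, oligodendrocyte lineage). Filled points are the 6 genes with an adjusted p-value under 0.05 when the replicate number was a block, from S100B at -1.25 to NFIX at 0.24.

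Promoter sequences are shown for GJA1, SPARCL1, NTRK2 and EDNRB, 4 of the 5 astrocyte genes that were lower with the block, from the RefSeq promoter table (build GRCh38.p14), which matched 27 of the 34 members. The windows searched hold the 250 bases before the start that the table gives. The stretch printed ends where the first exon of any transcript of that gene begins in GENCODE, which leaves 181 bases for GJA1, 122 for SPARCL1, 246 for NTRK2 and 164 for EDNRB. In GENCODE only GJA1 has no exon of its own further upstream, and the other stretches lie within an intron of a longer transcript. RefSeq's span of SPARCL1, printed further on, is shorter and ends before its stretch. The stretch of EDNRB also overlaps an exon of the antisense RNF219-AS1. They read 5′ to 3′ on the gene's own strand in lower case, and capitals mark the only motif match found, the NFI core TTGGCA in EDNRB, 218 bases before the start.

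GJA1, chr6:121435396-121435576, plus strand: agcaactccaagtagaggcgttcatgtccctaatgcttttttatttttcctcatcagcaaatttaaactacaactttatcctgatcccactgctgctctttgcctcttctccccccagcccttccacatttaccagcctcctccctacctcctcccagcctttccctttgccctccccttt
SPARCL1, chr4:87529505-87529626, minus strand: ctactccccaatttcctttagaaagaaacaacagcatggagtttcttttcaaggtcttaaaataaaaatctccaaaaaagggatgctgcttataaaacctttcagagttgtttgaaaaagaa
NTRK2, chr9:84669056-84669301, plus strand: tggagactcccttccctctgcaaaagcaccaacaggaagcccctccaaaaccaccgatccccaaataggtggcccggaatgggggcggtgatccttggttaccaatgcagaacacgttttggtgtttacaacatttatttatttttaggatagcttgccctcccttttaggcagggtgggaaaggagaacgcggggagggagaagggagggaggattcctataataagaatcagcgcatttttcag
EDNRB, chr13:77919769-77919932, minus strand: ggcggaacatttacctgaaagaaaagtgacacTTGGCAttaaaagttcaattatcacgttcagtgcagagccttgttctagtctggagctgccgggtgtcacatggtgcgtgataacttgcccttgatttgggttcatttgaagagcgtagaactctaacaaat

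The motifs searched on both strands were the NFI core TTGGCA, the STAT motif TTCNNNGAA and the SOX motif ACAATG, and the 3 do not overlap each other in these windows. The NFI core was present in 4 of the 27 member windows (EDNRB, GJB6, HEPACAM and NDRG2), against 8.77% of 14376 windows of the same length. The STAT motif was found in 1 (AGT), against 5.78%, and the SOX motif in 1 (NDRG2), against 6.01%. A match is a run of letters and not a measured binding site.

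The calcium-binding protein gene S100B (Entrez gene ID 6285, chr21:46598604-46605082), a marker of astrocytes, had the largest difference among the tested members. Its level was 5.29, 7.36 and 3.54 CPM in vehicle replicates 1 to 3 and 1.4, 3.44 and 1.92 CPM with Aβ42. All 3 Aβ42 libraries lay below all 3 vehicle libraries, although Aβ42 replicate 2 nearly met vehicle replicate 3. S100B had a log2 fold change of -1.25 ± 0.35 (SE, edgeR adjusted p = 0.0975), and with the block it was -1.26 ± 0.20 (adjusted p = 0.000941). S100B rested on 23 to 121 counts per library, the thinnest measurement among the 6 members that passed with the block. Without Aβ42 replicate 2 the log2 fold change was -1.69 (adjusted p = 0.00574). GFAP, the intermediate filament of astrocytes, was at 33.6, 32.7 and 28.1 CPM in vehicle and 28.1, 33.8 and 24.5 CPM with Aβ42, groups that overlapped. GFAP had fractional estimated counts in at least 1 library, while those of the other 33 members were whole. How its reads were assigned is not given in the sources used here.

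Among channel, junction and adhesion genes, GJA1 differed most. It encodes connexin 43, the main astrocyte gap junction protein (Entrez gene ID 2697, chr6:121435646-121449727). Its level was 15.6, 22.8 and 10.2 CPM in vehicle replicates 1 to 3 and 6.34, 14.8 and 5.82 CPM with Aβ42. The groups overlapped through Aβ42 replicate 2, but within each replicate number the Aβ42 library was lower, by log2 ratios of -1.30, -0.62 and -0.81. The log2 fold change was -0.84 ± 0.49 (SE, edgeR adjusted p = 0.358) without a block and -0.88 ± 0.13 (adjusted p = 0.00053) with it. Without a block it was -1.41 when Aβ42 replicate 2 was left out (adjusted p = 0.101) and -0.51 when vehicle replicate 2 was left out (0.656). The water channel gene AQP4 was at 2.1, 2.01 and 1.34 CPM in vehicle and 0.73, 1.6 and 1.26 CPM with Aβ42, on 12 to 35 counts per library. HEPACAM, an adhesion protein of astrocyte end-feet, was at 5.23, 6.81 and 6.34 CPM in vehicle and 5.0, 5.34 and 4.32 CPM with Aβ42. Neither AQP4 (log2 fold change -0.60) nor HEPACAM (-0.33) passed in any of the fits tried. GJB6, which encodes a further astrocyte connexin, had 1 count in vehicle replicate 1 and 0 in the other libraries.

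Among secreted proteins, SPARCL1 stood out. It encodes hevin, an astrocyte protein that promotes synapse formation (Entrez gene ID 8404, chr4:87473335-87529376). Its level was 40.4, 67.1 and 45.0 CPM in vehicle and 19.1, 44.8 and 17.3 CPM with Aβ42, so that only Aβ42 replicate 2 reached the vehicle range. SPARCL1 had a log2 fold change of -0.91 ± 0.46 (SE, edgeR adjusted p = 0.313), with the block -0.98 ± 0.16 (adjusted p = 0.0184), and without Aβ42 replicate 2 -1.48 (adjusted p = 0.0469). Its relative SPARC, an antagonist of hevin in synapse formation, was at 245.1, 290.0 and 266.3 CPM in vehicle and 239.6, 274.8 and 249.0 CPM with Aβ42, a log2 fold change of -0.07 ± 0.07. The other secreted proteins did not pass in the fits tried. The protease inhibitor gene CST3 had a log2 fold change of -0.08, the angiotensinogen gene AGT one of -0.49 on 5 to 20 counts per library, and LCAT, an enzyme of lipoprotein cholesterol, one of 0.41 on 24 to 43 counts.

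NTRK2 was the receptor with the smallest p-value among all members. It encodes TrkB, the receptor of brain-derived neurotrophic factor, which neurons and astrocytes both make, partly as different isoforms that a gene-level count does not separate (Entrez gene ID 4915, chr9:84668522-85027054). Its level was 88.8, 97.5 and 84.4 CPM in vehicle and 65.7, 74.7 and 67.9 CPM with Aβ42. All Aβ42 libraries lay below all vehicle libraries. The within-group standard deviation of its log2 CPM was 0.10, at the median over all genes tested (0.10). The log2 fold change was -0.38 ± 0.07 (SE, edgeR adjusted p = 0.0684), with the block -0.38 ± 0.06 (adjusted p = 0.000503). NTRK2 also passed in DESeq2 (adjusted p = 0.000805), in edgeR's test without a filter (0.0321) and without Aβ42 replicate 2 (0.000863), and its adjusted p-value reached 0.296 in the fits that left out a single library.

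The endothelin receptor gene EDNRB, active in radial glia and astrocytes, was the other receptor that passed with the block (Entrez gene ID 1910, chr13:77895487-77975527). Its level was 20.2, 35.5 and 26.9 CPM in vehicle and 19.8, 23.3 and 17.5 CPM with Aβ42, and the groups overlapped. The pairs of replicate 2 and 3 had log2 ratios of -0.61 and -0.62, while that of replicate 1 was -0.03. EDNRB had a log2 fold change of -0.45 ± 0.21 (SE, edgeR adjusted p = 0.248), with the block -0.43 ± 0.11 (adjusted p = 0.0188), and no fit that left out a library gave an adjusted p-value under 0.0953. Without vehicle replicate 2 the log2 fold change of EDNRB was -0.22. FGFR3, a fibroblast growth factor receptor of glial progenitors, was at 35.0, 30.9 and 30.0 CPM in vehicle and 37.5, 33.8 and 29.9 CPM with Aβ42. F3, the coagulation receptor also called tissue factor, was at 25.6 to 26.7 CPM in vehicle and 25.4 to 30.8 CPM with Aβ42, so that neither receptor separated the groups.

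**Figure D3:**
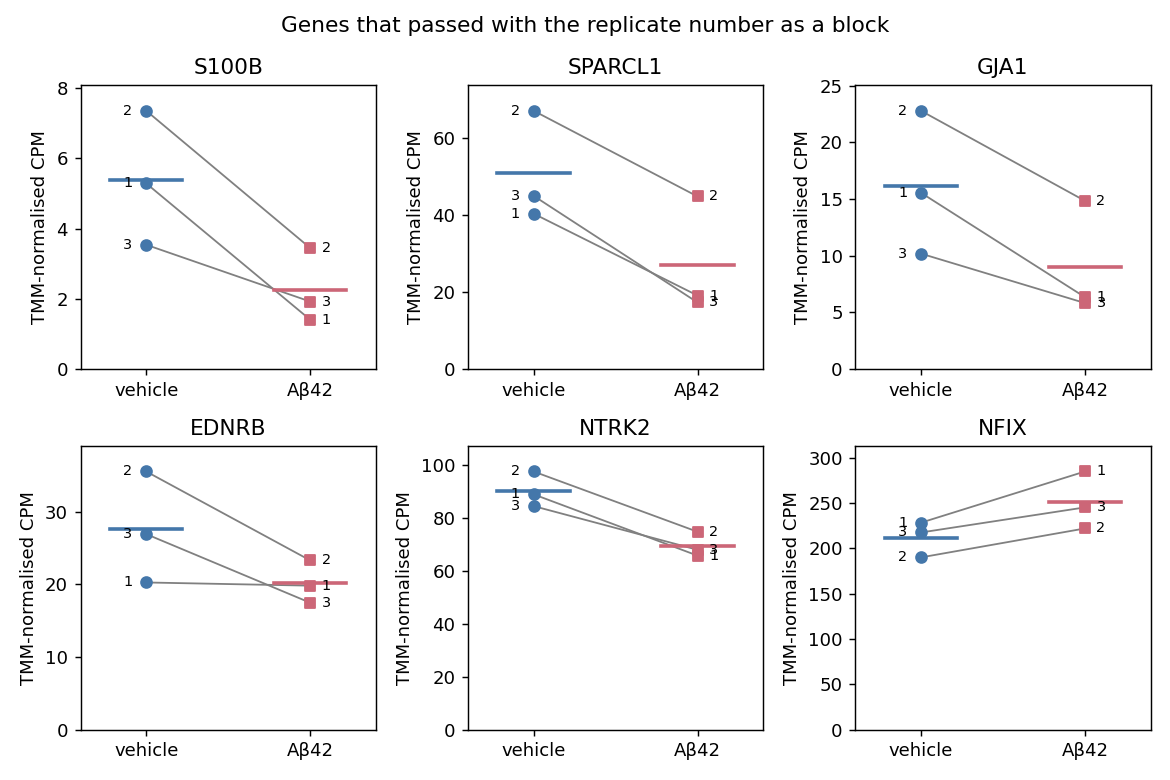
TMM-normalised CPM of the 6 members that passed with the replicate number as a block, in vehicle (blue circles) and Aβ42 (red squares), with grey lines joining libraries of the same number and bars at the group means. Replicate 2 is the highest library of both groups in S100B, SPARCL1, GJA1, EDNRB and NTRK2, and the lowest in NFIX.

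In the NFI family only NFIX passed in any fit tried, among NFIA, NFIB and NFIX, the factors that switch progenitors toward astrocyte production. NFIX (Entrez gene ID 4784, chr19:12995475-13098796) was at 228.2, 189.9 and 217.4 CPM in vehicle and 284.7, 221.9 and 245.1 CPM with Aβ42. The groups overlapped between vehicle replicate 1 and Aβ42 replicate 2, while the log2 ratios within replicate numbers were 0.32, 0.22 and 0.17. The log2 fold change was 0.24 ± 0.10 (SE, edgeR adjusted p = 0.187), with the block 0.24 ± 0.05 (adjusted p = 0.00508), and without Aβ42 replicate 2 0.32 (adjusted p = 0.0402). Without Aβ42 replicate 1 it was 0.14 (adjusted p = 0.421). NFIA was at 101.6 to 104.6 CPM in vehicle and 98.1 to 109.6 CPM with Aβ42, and NFIB at 687.6 to 754.5 CPM and 615.5 to 750.7 CPM. The log2 fold changes of NFIA (-0.02 ± 0.05) and NFIB (-0.08 ± 0.07) did not pass, and that of NFIA changed sign in some fits. Whether NFIX differed from NFIA and NFIB in its response was not tested.

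Genes of glutamate and folate metabolism did not pass, nor did NDRG2, which is described with them. GLUL, which turns glutamate into glutamine, was at 237.0, 223.3 and 229.7 CPM in vehicle and 244.9, 255.1 and 251.4 CPM with Aβ42, groups that did not overlap (log2 fold change 0.12 ± 0.05, edgeR adjusted p = 0.143). ALDH1L1, a folate enzyme used as a pan-astrocyte marker, was at 6.97, 7.17 and 8.42 CPM in vehicle and 9.45, 9.44 and 9.42 CPM with Aβ42 (0.33 ± 0.12, 0.137). NDRG2, a stress-regulated protein enriched in astrocytes, was at 57.3, 63.5 and 64.5 CPM in vehicle and 65.6, 69.1 and 71.2 CPM with Aβ42 (0.15 ± 0.06, 0.17). None of these 3 genes passed in any fit tried. The glutamate transporter SLC1A2 was at 594.6 to 619.4 CPM in vehicle and 592.9 to 635.3 CPM with Aβ42, and its log2 fold change of 0.01 ± 0.05 changed sign on the TPM scale.

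Genes tied to reactive astrocytes were low and none passed. The hyaluronan receptor gene CD44 was at 5.59, 5.29 and 3.78 CPM in vehicle and 3.9, 3.21 and 3.12 CPM with Aβ42, a log2 fold change of -0.52 ± 0.20 (SE, edgeR adjusted p = 0.148, with the block 0.053). SERPINA3, a protease inhibitor of the acute phase, was at 3.3, 2.92 and 0.85 CPM in vehicle and 1.28, 2.14 and 1.5 CPM with Aβ42. The annexin partner gene S100A10 had 8 to 20 counts per library (log2 fold change -0.43 ± 0.40). CHI3L1, a secreted glycoprotein raised in inflamed astrocytes, had 7, 26 and 8 counts in vehicle and 5, 14 and 9 with Aβ42 and did not pass the filter on low counts.

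Surface and matrix genes of oligodendrocyte precursors were measurable. PDGFRA was at 4.45, 3.65 and 2.87 CPM in vehicle and 2.5, 3.09 and 2.46 CPM with Aβ42, where Aβ42 replicate 2 lay inside the vehicle range (log2 fold change -0.44 ± 0.22, edgeR adjusted p = 0.236). CSPG4 was at 6.43, 7.17 and 5.98 CPM in vehicle and 6.16, 5.7 and 6.18 CPM with Aβ42 (-0.12 ± 0.13). BCAN, a brain proteoglycan that radial glia and astrocytes also make, was at 57.8, 58.4 and 58.1 CPM in vehicle and 60.8, 58.7 and 64.7 CPM with Aβ42. Its groups did not overlap, although vehicle replicate 2 and Aβ42 replicate 2 nearly met, and its log2 fold change was 0.08 ± 0.06 (edgeR adjusted p = 0.407). MBP, the myelin basic protein gene, had 9 to 20 counts per library and a log2 fold change of 0.06 ± 0.37. PDGFRA, SPARC and CD44 are also genes of mesenchymal and mural cells. The 10 listed markers of those cells summed to 29.6 to 42.7 TPM in vehicle and 26.1 to 30.1 TPM with Aβ42, all 10 had a count in at least 1 library, and their part in these values was not tested.

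Variation between libraries was uneven among the members. The median within-group standard deviation of log2 CPM was 0.17 over the 24 astrocyte genes and 0.18 over the 4 oligodendrocyte genes, beside 0.10 over all genes tested. It ran from 0.04 for GLUL to 0.66 for GJA1, 0.63 for AGT and 0.76 for SERPINA3. In 8 of the 24 astrocyte genes (S100B, GJA1, SPARCL1, SPARC, HEPACAM, CST3, NTRK2 and EDNRB), the libraries numbered 2 were the highest of both groups, against 18.5% of all genes tested. In the oligodendrocyte list this held for MBP. In NFIX the libraries numbered 2 were the lowest of both groups, as in 18.2% of all genes tested. Within replicate numbers, 10 of 24 astrocyte genes were lower with Aβ42 in all 3 pairs and 5 higher, and in the oligodendrocyte list 1 of 4 was lower and 1 higher. Of all genes tested 50.2% went in a single direction in all 3 pairs, 25.6% higher and 24.6% lower.

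Markers of some other cell types were also highest in the libraries numbered 2, and those of others were not. The 8 listed choroid plexus markers, mostly through TTR, summed to 3349.8, 7575 and 3968 TPM in vehicle replicates 1 to 3 and to 3644, 6666 and 2839.8 TPM with Aβ42, with the libraries numbered 2 highest in both groups and no marker at 0 in all libraries. Of the 7 choroid plexus markers tested, 2 were lower with the block (CLIC6 and OTX2) and 0 higher. The chloride channel gene CLIC6 was at 18.9, 44.8 and 20.8 CPM in vehicle and 12.01, 30.2 and 14.4 CPM with Aβ42. Its log2 fold change was -0.58 ± 0.08 with the block (edgeR adjusted p = 0.000309) and -0.57 ± 0.55 without it (0.568). With the block TTR was at -0.09 (0.617) and AQP1 at 0.55 (0.332), and neither passed. The 8 markers of dividing cells summed to 467.2, 559.9 and 488.1 TPM in vehicle and 318.6, 421.2 and 294.8 TPM with Aβ42. With the block 7 of these 8 were lower, and all 8 were highest in the libraries numbered 2 of both groups. The counts of markers in this paragraph stand beside 7.05% of all genes tested that were lower with the block. They also stand beside the 18.5% that were highest in the libraries numbered 2 of both groups. The 7 markers of intermediate progenitors, the dividing precursors of neurons, summed to 284.9, 317.1 and 281.0 TPM in vehicle and 206.8, 236.3 and 189.3 TPM with Aβ42, and 5 of the 7 were lower with the block. Their defining factor EOMES had a log2 fold change of -0.84 ± 0.06 with the block (edgeR adjusted p = 2.44e-06) and -0.83 ± 0.17 without it (0.0779). The matrix gene DCN, a mesenchymal marker, was at 27.2, 58.6 and 23.4 CPM in vehicle and 12.1, 24.2 and 12.1 CPM with Aβ42. It was lower with the block (-1.15 ± 0.08, edgeR adjusted p = 2.28e-06) and did not pass without it (-1.17 ± 0.52, 0.263). TAGLN of the same list was higher with the block (0.39 ± 0.12, edgeR adjusted p = 0.0361) and did not pass without it (0.121). Of the 7 mesenchymal and mural markers tested, 4 had a positive and 3 a negative log2 fold change without a block. The 12 radial glia markers, mostly through FABP7, summed to 6531, 6903 and 7128 TPM in vehicle and 6951, 6881 and 7212 TPM with Aβ42. These sums were highest in the libraries numbered 3, and 1 of the 12 was lower with the block. FABP7 alone was at 4888, 5226 and 5338 TPM in vehicle and 5402, 5180 and 5661 TPM with Aβ42. It too was highest in the libraries numbered 3, so the order of the sums does not describe the other radial glia markers. The 10 neuronal markers summed to 5484, 5741 and 5691 TPM in vehicle and 5308, 5127 and 5205 TPM with Aβ42, and 4 of them were lower with the block. None of the 10 neuronal markers and 1 of the 12 radial glia markers were highest in the libraries numbered 2 of both groups. The part of these cell types in the differences of S100B, GJA1, SPARCL1, EDNRB and NTRK2 was not tested. Microglia markers summed to 0.32 to 1.27 TPM, and C1QA, C1QB, C1QC, TREM2 and TYROBP were at 0 in every library.

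Wider lists of glial genes, none of them members, were examined in the same fit. No gene of these lists passed without a block, where 8 of 24 other astrocyte genes, 5 of 11 reactive astrocyte genes, 0 of 12 other precursor genes and 3 of 9 myelin genes had an unadjusted p-value under 0.05 in edgeR's test, beside 23.9% of all genes. With the block, 8 of 24 other astrocyte genes passed, 2 higher and 6 lower. Among reactive astrocyte genes 1 was higher and 1 lower of 11, among other oligodendrocyte precursor genes none passed of 12, and among myelin and mature oligodendrocyte genes 2 of 9 were higher. These counts stand beside the 14.2% of all genes. Without Aβ42 replicate 2 the calls were 2 higher and 7 lower among other astrocyte genes, 1 higher and 1 lower among the reactive genes, 1 higher and 1 lower among the precursor genes, and 2 higher among the myelin genes, beside 23.1% of all genes. These counts are over the same 24, 11, 12 and 9 genes. DESeq2 called APOE, TRIL and UGT8 among these lists, named after their values were seen, beside 5.88% of all genes.

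In the list of other astrocyte genes, the smallest p-values without a block among lower genes were those of TRIL, a Toll-like receptor accessory protein, and SLC25A18, a mitochondrial glutamate carrier. TRIL was at 19.0, 22.6 and 19.5 CPM in vehicle and 12.6, 15.3 and 16.1 CPM with Aβ42 (log2 fold change -0.47 ± 0.11, edgeR adjusted p = 0.0734, with the block 0.00335). SLC25A18 had a log2 fold change of -0.48 (0.124, with the block 0.044). On the other side were the sodium pump subunit gene ATP1B2 (0.27, adjusted p = 0.163, with the block 0.00394) and MFGE8, a secreted phagocytosis adaptor (0.15, 0.189, with the block 0.168).

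Reactive genes of the wider list did not move in a single direction. EMP1, a membrane protein gene, was at 3.18, 2.19 and 2.68 CPM in vehicle and 4.69, 3.27 and 6.72 CPM with Aβ42 (log2 fold change 0.86 ± 0.27, edgeR adjusted p = 0.108, with the block 0.00904). The small heat shock protein gene HSPB1 had a log2 fold change of 0.21 (0.166, with the block 0.096). The complement inhibitor gene SERPING1 was at -0.31 (0.156, with the block 0.0906) and the intermediate filament gene NES, also a progenitor marker, at -0.20 (0.168, with the block 0.0208). CXCL10, an interferon-induced chemokine, had 0 counts in all 6 libraries.

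Among myelin genes, UGT8 had the smallest p-value without a block. It encodes the enzyme that makes galactosylceramide, a myelin lipid. Its level was 4.81, 3.95 and 4.27 CPM in vehicle and 10.1, 6.59 and 9.6 CPM with Aβ42, groups that did not overlap. The log2 fold change was 1.01 ± 0.18 (SE, edgeR adjusted p = 0.0684), and the adjusted p-value with the block was 0.000397. TF, the transferrin gene, had a log2 fold change of 0.24 (adjusted p = 0.115, with the block 0.0461). UGT8 and TF had fractional estimated counts in at least 1 library, and how those reads were assigned is not given in the sources used here. On the other side, the phosphodiesterase gene ENPP2, which choroid plexus also makes, had a log2 fold change of -1.02 ± 0.40 (edgeR adjusted p = 0.211). The myelin connexin gene GJB1 had 0 counts in all libraries.

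Of the 12 precursor genes tested in the wider list, 9 had a negative log2 fold change without a block, and the median was -0.11. SOX8, a relative of SOX10, had a log2 fold change of 0.15 ± 0.08 and the matrix protein gene TNR one of 0.21 ± 0.17. TNR was at 99.7, 95.5 and 107.5 CPM in vehicle and 131.3, 85.9 and 133.2 CPM with Aβ42, where replicate 2 lay below all vehicle libraries. Without that library its log2 fold change was 0.39 (edgeR adjusted p = 0.000606). The other precursor gene called in that fit, named after its values were seen, was the transcription factor gene SOX6, at -0.28 (adjusted p = 0.0151). MYT1 (-0.15 ± 0.07) and LHFPL3 (-0.39 ± 0.23) were on the other side, and none of these 4 passed without a block or with it.

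**Figure D4:**
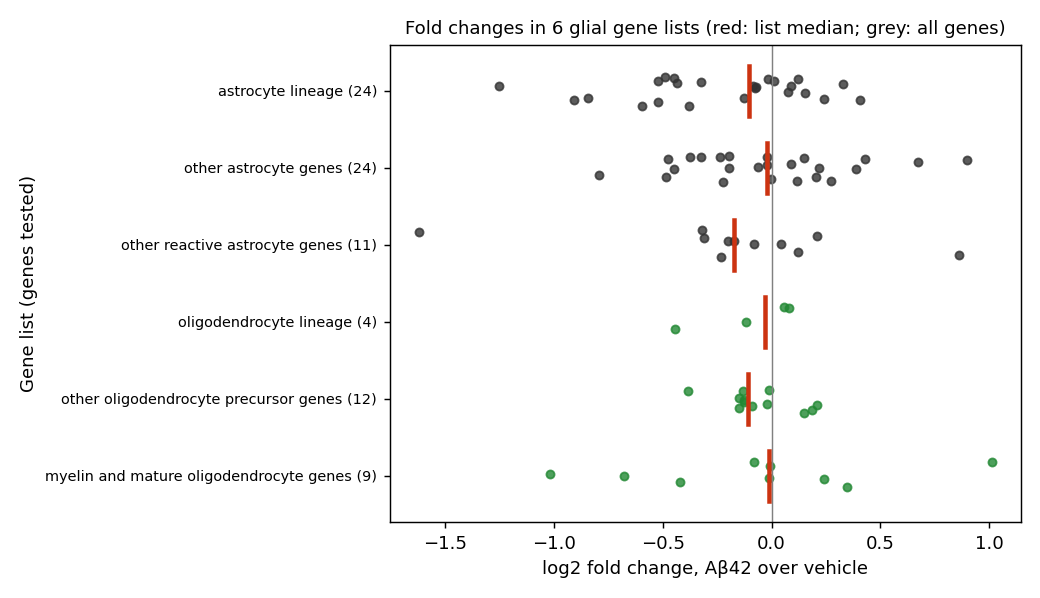
Log2 fold change of Aβ42 over vehicle, without a block, for each tested gene of 6 glial lists, 3 of astrocytes (black) and 3 of the oligodendrocyte lineage (green). Red bars are list medians, from -0.17 for the 11 reactive genes to -0.01 for the 9 myelin genes, and the grey line is the median of all genes tested (0.00).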

How the data were processed

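The authors deposited 1 table with an estimated count and a TPM value per gene for each of 6 libraries. Per the file headers these are read counts, but 86.9% to 87.5% of the deposited count values in a library were whole, so they were treated as estimated counts and rounded. The deposited TPM values are scaled by the authors to gene length and library total. Per the submitters' processing notes the tools were FastQC, STAR 2.7.11b and featureCounts 2.0.6 with GRCh38. The labels describe a stranded kit. The annotation and strand setting of the counting are not given in the sources used here. In GENCODE 15 of the 34 members share exon sequence with a gene on the opposite strand, EDNRB and NFIX among them. Reads of those pairs may not be separated. On the same strand, 6 members share exon sequence with another gene (AGT, LCAT, MBP, NDRG2, PDGFRA and SERPINA3), which a strand setting does not resolve. Polyadenylated RNA was used, with PCR and no mention of molecular identifiers, so precision covers counting error and the spread between libraries.

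Genes were kept by filterByExpr (13842), scaled by TMM and compared with edgeR 4.0.16's quasi-likelihood test (robust, two-sided, R 4.3.3), with Benjamini-Hochberg adjustment over all genes and a threshold of 0.05. The standard error is the log2 fold change divided by the root of F. The alternatives were RLE scaling, no filter, DESeq2 1.42.0, limma 3.58.1 on log2(TPM + 1) and log2(TPM + 0.1), a replicate block, an offset for gene length with and without the block, and each library left out. Chi-square values between libraries used the 12187 genes whose mean count reached 50. Replicate numbers were taken to pair the libraries because each same-numbered correlation of deviations exceeded 0.1. Crossing numbers 1 and 3 also gave correlations above 0.1 (0.149 and 0.225). The rule therefore cannot single out the pairing by number, and p-values with the block depend on that choice. This pairing comes from the data, as the labels do not say what a number marks, and p-values measure the spread between these libraries, which may be partly technical. The members, lists and tests were chosen with earlier results of these data known. All members were named, and of each wider list the 2 smallest p-values per direction and genes at 0, except for a result that is not reported here.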

Additional observations from a re-analysis of the deposited data

How the results depend on the processing

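Across the 14 alternatives, 40 of the 44 tested genes named by rule kept the sign of their log2 fold change. The exceptions were small values. SLC1A2 was at -0.0308 on log2(TPM + 1), at -0.0310 on log2(TPM + 0.1), and between -0.0189 (without Aβ42 replicate 1) and 0.0310 (without vehicle replicate 3) when a library was left out. FGFR3 lay between -0.0049 (without Aβ42 replicate 1) and 0.1552 in those fits. NFIA was at 0.0254 with the length offset and 0.0246 with the replicate block and length offset, and lay between -0.0706 and 0.0101 with a library left out, positive without Aβ42 replicate 2 or 3. MBP was at -0.0539 on log2(TPM + 1) and -0.12 on log2(TPM + 0.1), and lay between -0.16 and 0.4694 with a library left out, negative without vehicle replicate 1 or 3 or Aβ42 replicate 2.

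The count of all genes called was 0 and became 360 without a filter, 814 with DESeq2, 1962 with the replicate block and 1993 with the replicate block and length offset, and with a library left out it lay between 0 and 3224, the latter without Aβ42 replicate 2 and 0 without any other library. For astrocyte members the count of 0 became 1 without a filter (NTRK2), 1 with DESeq2, 6 with the replicate block and 6 with the block and length offset, and lay between 0 and 4 with a library left out. The count for oligodendrocyte members was 0 in all 14. The astrocyte median of -0.11 was -0.23 without a filter, where more genes enter, and -0.22 on log2(TPM + 0.1), where the cause was not tested. With a library left out it lay between -0.21 (without Aβ42 replicate 2) and -0.0543 (without Aβ42 replicate 3). The oligodendrocyte median of -0.03 lay between -0.15 (without vehicle replicate 1) and 0.0184 (without vehicle replicate 2) with a library left out. Genes with at most 26 counts per library (AGT, S100A10, CHI3L1, MBP, GJB6 and the 4 oligodendrocyte factors) are limited by depth.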

Other observations

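The genes of this paragraph were named after their values were seen, and all but CP passed with the replicate block. APOE, the main apolipoprotein of astrocytes, was at 12.1, 15.9 and 9.57 CPM in vehicle and 6.09, 10.5 and 5.1 CPM with Aβ42, with the libraries numbered 2 highest in both groups as for GJA1. APOE had a log2 fold change of -0.79 ± 0.30 without a block (edgeR adjusted p = 0.17) and -0.81 ± 0.12 with it (0.00053). The aldolase gene ALDOC, a glycolytic enzyme of astrocytes, was higher, at 25.2, 11.1 and 19.2 CPM in vehicle and 40.2, 23.5 and 39.6 CPM with Aβ42, with the libraries numbered 2 lowest. Its log2 fold change was 0.90 ± 0.36 without a block (edgeR adjusted p = 0.222) and 0.92 ± 0.09 with it (2.02e-05). The glutamate transporter gene SLC1A3 (-0.23 ± 0.05, 0.00919), the progenitor factor gene ID4 (-0.24 ± 0.07, 0.0211) and the gene of the glial transcription factor ZBTB20 (-0.33 ± 0.06, 0.00227) were lower with the block. Without a block the adjusted p-values of SLC1A3, ID4 and ZBTB20 in edgeR's test were 0.195, 0.145 and 0.363, and their groups overlapped. CP, the ceruloplasmin gene of the reactive list, was at 22.3, 22.01 and 6.71 CPM in vehicle and 2.38, 10.5 and 3.66 CPM with Aβ42, and it did not pass with the block (0.274).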
